A study of Mus musculus with 18 samples.

Results

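Laminins, nidogens and integrins were examined in whole lungs of mouse embryos at 14.5 days post coitus (dpc). Members were the genes whose symbols are those of laminin chains (Lama, Lamb and Lamc with a number), nidogens (Nid1 and Nid2) or integrin subunits (Itga and Itgb), with a mean value of at least 10 normalised reads in each of the 3 deposited tables. Of 23420 genes in each table, 40 symbols matched and 38 passed the minimum: 11 laminin chains, 2 nidogens, 17 integrin alpha subunits and 8 integrin beta subunits. Itgad had means of 1.17 (Rptor table), 1.49 (Tfam table) and 1.33 (Cox10 table) and was left out, as was Itgb2l, with 13.8, 9.0 and 13.0 in the same order. The lowest members inside it were Itgax, with means of 34.2, 14.3 and 22.7, and Itgb7, with means of 27.9, 34.3 and 18.5. All 38 members also passed the separate filter on low values in every line and were tested.

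The study asked how gene expression differs in lungs whose epithelium lacks Rptor, Tfam or Cox10. Rptor encodes a component of mTOR complex 1, Tfam a factor that maintains mitochondrial DNA, and Cox10 an enzyme needed for cytochrome c oxidase. Deficient lungs were Rptorf/f; ShhCre/+, Tfamf/f; ShhCre/+ or Cox10f/f; ShhCre/+, and littermate controls were Rptorf/+; ShhCre/+, Tfamf/+; ShhCre/+ or Cox10f/+; ShhCre/+. Every lung, control or deficient, therefore carried the Cre allele of Shh, which is active in the lung epithelium, and at least 1 floxed allele. There were 3 samples in each of the 6 groups. Whole lungs were sequenced although the deletion is epithelial, so fewer cells of a type and less RNA per cell cannot be told apart in these values.

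Laminins are trimers of an alpha, a beta and a gamma chain and form the sheet of the basement membrane on which epithelium rests. Nidogens tie that sheet to the collagen IV network and to perlecan. Integrins are pairs of an alpha and a beta subunit that span the cell membrane and bind laminins, fibronectin, nephronectin or the latent form of TGF-beta outside the cell and the cytoskeleton inside it. In the branching lung, the laminin sheet surrounds the airway epithelium and mesenchymal cells contact it from the outside.

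The 18 samples held between 27727202 and 29611064 normalised reads, and 17671 to 17910 genes were above 0. The targeted gene did not pass the threshold in its own line: Rptor had a mean of 2240 in control and 2149 in deficient lungs, Tfam 1102 and 1013, and Cox10 797 and 794. These are RNA values of whole lungs, and the study reported less RPTOR, TFAM and COX10 protein in purified epithelial cells of the mutants. Rptor-deficient lungs had lower values of 6 of 6 epithelial markers, and 6 of 6 endothelial, 6 of 6 leukocyte, 3 of 6 lung mesenchyme and 3 of 4 mesothelial markers rose, all past the threshold described below. Smooth muscle markers were mixed there, with 1 of 6 higher and 4 lower. Of the markers in the Tfam line, 2 of 6 epithelial and 4 of 6 smooth muscle genes fell, and no other marker list had a gene past the threshold. No marker passed in the Cox10 line, and the 6 epithelial markers had log2 differences between -0.47 and -0.3. Deficient replicate 3 of the Cox10 line stood apart from its group, with correlations of 0.9808 and 0.9843 to the other 2 deficient samples against 0.9917 between those, so calls of members in the Cox10 line are given with and without it. Deficient replicate 1 of the Rptor line lay apart by less, with 0.9875 and 0.9838 against 0.9904, and is covered by the ranges with a sample left out.

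In control lungs, levels per length were compared, since longer transcripts give more reads. The laminin gamma 1 chain gene Lamc1 had the highest level of the 13 laminin and nidogen genes in each line, with 3230 ± 69.1 normalised reads per kilobase of exon (mean ± SD, n = 3) in Rptor line controls, 2700 ± 135 in Tfam line controls and 2630 ± 99.5 in Cox10 line controls. Nid1, Lamb1 and Nid2 came next, between 1240 and 1990 by group mean. In the Rptor line controls their ranges did not touch, with Nid1 from 1880 to 2080, Lamb1 from 1660 to 1770 and Nid2 from 1200 to 1260. The order of the 3 genes was not the same elsewhere: Nid2 (1430 to 1670) lay above Lamb1 (1280 to 1310) in Tfam line controls, and Nid1 (1340 to 1360) had the lowest mean of the 3 in Cox10 line controls, where Lamb1 (1470 to 1500) and Nid2 (1360 to 1530) overlapped. Lama5, an epithelial alpha chain of the embryonic lung, had a mean of 726 ± 94.5 in the Rptor line controls and overlapped there with Lama4, an alpha chain of vessels and mesenchyme, with 693 ± 14.6. In the other 2 lines its range lay above that of Lama4, 765 to 890 against 607 to 611 in Tfam line controls and 643 to 700 against 526 to 537 in Cox10 line controls. Lama3 and Lamb3, chains of a laminin of epithelial anchoring contacts, lay lower, with 373 ± 51.9 and 221 ± 18.4. Lamc3 was the lowest in all 3 lines, at 16.6 ± 2.67, 19.2 ± 1.18 and 16.8 ± 1.0. Among integrins, Itgb1, the beta subunit shared by most matrix receptors, had the highest level, at 5960 ± 61.3 per kilobase in the Rptor line controls, and Itgb6 and Itgb8, which pair with alpha v to bind latent TGF-beta, had 27.6 ± 8.33 and 11.4 ± 0.876. Each table was scaled on its own, so levels of different lines are set side by side and were not tested.

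**Figure D1:**
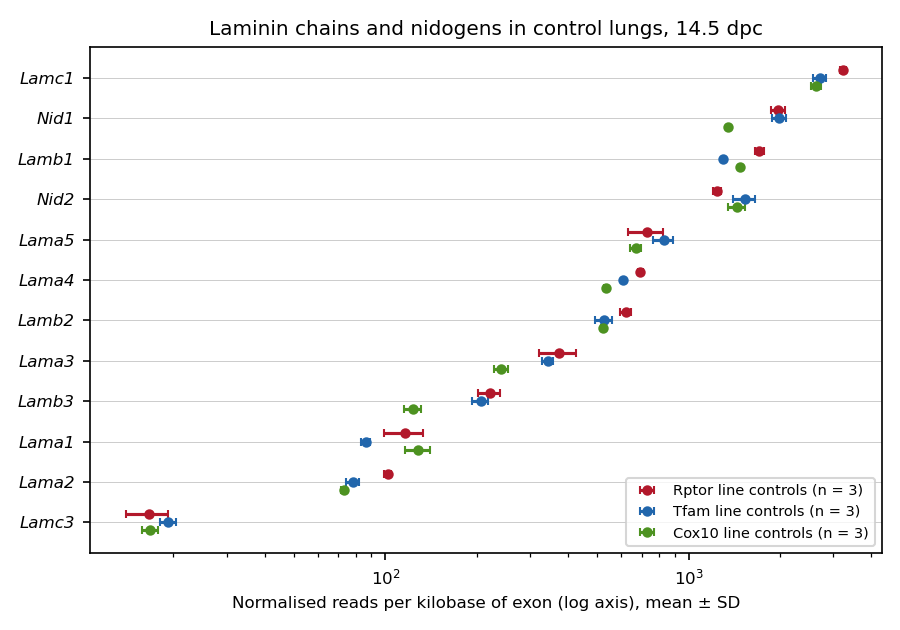
Levels of 10 laminin chain genes and 2 nidogen genes in control lungs, in normalised reads per kilobase of exon on a log axis, with points for the mean and bars for the SD of 3 samples and a color for each line. Lamc1 is the highest gene shown and Lamc3 the lowest in every line, at 3230 and 16.6 in the Rptor line controls.

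Deficient and control lungs were compared within each line by limma on log2(value + 1), with Benjamini-Hochberg adjustment over all genes tested and an adjusted p below 0.05 as threshold. Of 38 members, 18 passed in the Rptor line, 10 higher and 8 lower in deficient lungs. That is 47.4% of members, beside 34.8% of all 14940 genes tested (16.6% higher and 18.2% lower). The Tfam line had 6 members past the threshold, 2 higher and 4 lower, which is 15.8% beside 4.66% of all genes (2.03% higher and 2.63% lower). This count was 3 when any of 5 of the 6 Tfam samples (all but control replicate 3) was left out, beside 2.37% to 3.3% of all genes. No member passed in the Cox10 line, beside 0.475% of all genes (0.141% higher and 0.335% lower). There, 8 of 38 members had an unadjusted limma p below 0.05, beside 13.0% of all genes, and edgeR on recovered reads also called no member, beside 0.495% of all genes. The fit of all 18 samples, which shares 1 estimate of the spread between lines, called 5 members in the Cox10 line (Lamb3, Itga8, Itga2, Itga9 and Lamb2), beside 2.25% of all genes. It called 19 members in the Rptor line, beside 40.8%, and 3 in the Tfam line, beside 2.74%. The median log2 difference of the members was 0.074, 0.037 and 0.049 in the 3 lines, and that of all genes 0.0083, 0.001 and 0.0014. Members moved in both directions in the Rptor and Tfam lines. The study describes repeats in vivo as biological and pooling of lungs for an earlier stage only, but the labels tie no sample to an embryo or litter, so p-values measure the spread between these samples.

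The 3 deficient values lay wholly above or below the 3 control values for 23 members with Rptor deleted (60.5%, beside 50.3% of all genes), for 12 with Tfam deleted (31.6%, beside 22.8%) and for 9 with Cox10 deleted (23.7%, beside 21.3%). Itga8, Itgb6 and Lamb3, 3 of 38 members, did so in all 3 lines in the same direction, beside 5.94% of the 14550 genes tested in all lines, a share not far from that of the members. Lamb3 and Itgb6 were lower and Itga8 was higher in deficient lungs each time. These 3 genes, with Lama3, were also the members past the threshold in both the Rptor and the Tfam line, beside 3.62% of genes tested in both.

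**Figure D2:**
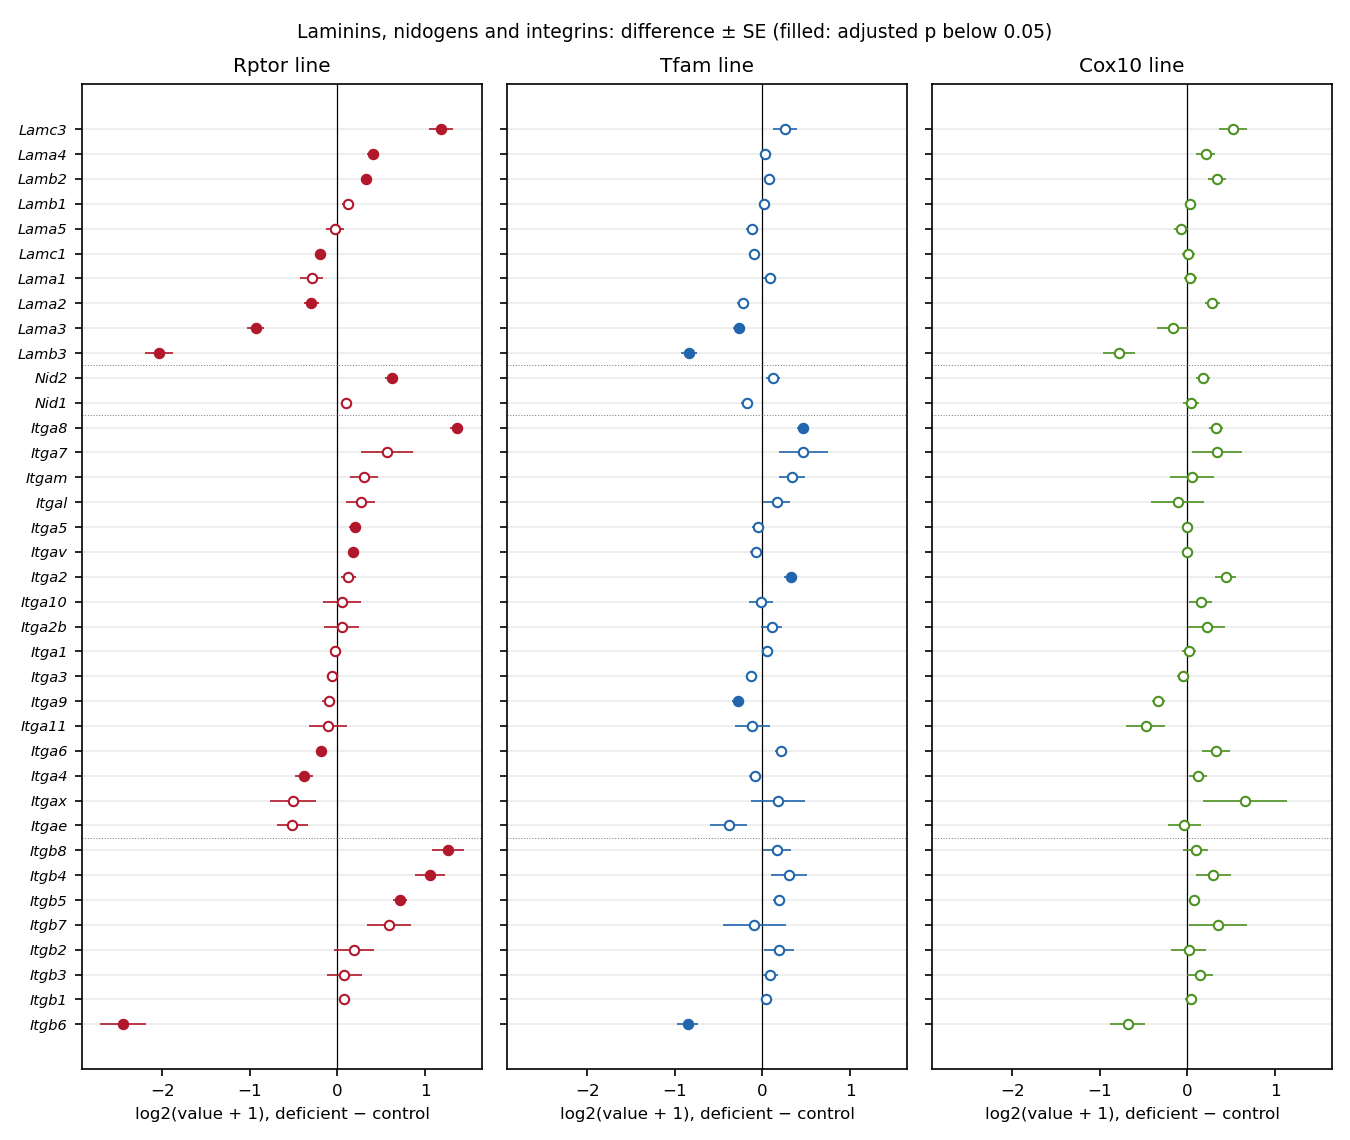
Difference of 37 members between deficient and control lungs, in log2(value + 1) on the horizontal axis, with bars for the SE of the fit and a panel for each line (3 samples per group). Filled points passed the adjusted p threshold of 0.05, which 17, 6 and none of those shown did in the panels from left to right.

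The stretches before the start sites of these 3 genes are shown because they are the members whose groups separated in the same direction in all 3 lines. Sequences are those of RefSeq on GRCm38.p6, read 5′ to 3′ on the strand of the gene and ending before its first exon, and for Itgb6 and Lamb3 the first of 2 start sites in the RefSeq table was taken. Lamb3 spans chr1:193207699-193343878 on the plus strand, Itga8 chr2:12106632-12301922 and Itgb6 chr2:60598292-60722643 on the minus strand (GENCODE M21). The printed runs are chr1:193301744-193301992, chr2:12301945-12302194 and chr2:60722644-60722853. The run before Lamb3 lies within the span of the gene, outside its annotated exons, since other transcripts start farther upstream. The run before Itga8 lies inside an exon of E030013I19Rik, an annotated antisense RNA.
Lamb3: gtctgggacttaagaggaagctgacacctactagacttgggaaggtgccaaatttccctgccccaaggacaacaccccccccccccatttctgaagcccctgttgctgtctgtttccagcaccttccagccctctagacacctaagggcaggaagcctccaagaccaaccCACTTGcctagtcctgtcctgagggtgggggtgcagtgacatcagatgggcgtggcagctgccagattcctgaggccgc
Itga8: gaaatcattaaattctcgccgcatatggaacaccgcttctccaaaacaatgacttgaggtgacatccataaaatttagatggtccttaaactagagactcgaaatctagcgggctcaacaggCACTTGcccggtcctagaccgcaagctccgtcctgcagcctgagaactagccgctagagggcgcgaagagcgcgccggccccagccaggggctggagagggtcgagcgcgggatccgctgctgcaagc
Itgb6: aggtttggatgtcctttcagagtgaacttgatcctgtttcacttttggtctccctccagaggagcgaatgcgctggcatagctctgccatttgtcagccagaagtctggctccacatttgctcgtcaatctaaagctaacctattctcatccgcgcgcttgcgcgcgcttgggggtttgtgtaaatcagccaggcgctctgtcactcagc
Capitals mark matches to 6 motifs searched on both strands in the 250 bases before the start: the TATA box (TATAAA), the GC box (GGGCGG), the nuclear factor Y box (CCAAT), the AP-1 site (TGANTCA), the E-box (CACGTG) and the core of NKX2 factors (CAAGTG). Only the NKX2 core was found, on the minus strand of the run, 80 bases before the start of Lamb3 and 128 bases before that of Itga8. It is also present in 11.6% of 32851 RefSeq promoter windows of this length, against 12.4% for the TATA box, 32.7% for the GC box, 33.8% for the nuclear factor Y box, 6.75% for the AP-1 site and 6.02% for the E-box.

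Among the laminins of the epithelial anchoring contact, Lamb3, the beta 3 chain, had the largest fall. Rptor line controls had 1603, 1398 and 1386 normalised reads and Rptor-deficient lungs 276, 370 and 441, a log2 difference of -2.03 ± 0.16 (SE, n = 3 per group, limma adjusted p = 8.66e-05). Tfam line controls had 1327, 1304 and 1460 and Tfam-deficient lungs 683, 740 and 880 (-0.83 ± 0.093, limma adjusted p = 0.000485). With Cox10, 860, 756 and 824 stood against 403, 402 and 651 in deficient lungs (-0.78 ± 0.18, limma adjusted p = 0.146). The groups did not overlap in any line. Without deficient replicate 3, the highest of its group, the Cox10 difference was -1.01 ± 0.074 with a limma adjusted p of 0.00136, and in the fit of all 18 samples the adjusted p was 0.0186.

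Lama3, the alpha 3 chain, which assembles with it, fell in the Rptor line from 4591, 3949 and 3481 in control to 2132, 2177 and 1946 in deficient lungs (-0.93 ± 0.10, limma adjusted p = 0.000359). Tfam line controls had 3850, 3654 and 3557 and Tfam-deficient lungs 2803, 3281 and 3101 (-0.27 ± 0.068, limma adjusted p = 0.0472). The Tfam call did not hold when any of 5 of the 6 samples (all but control replicate 3) was left out, with an adjusted p of up to 0.196, nor with the replicate block (0.0518). Cox10 line controls, with 2467, 2753 and 2559, overlapped with Cox10-deficient lungs, with 1642, 2795 and 2666. Both chains were thus lower in deficient lungs of the Rptor and Tfam lines. The summed level of the 6 epithelial markers was lower in the same lungs, at 10524 to 13939 against 26827 to 27819 in controls of the Rptor line and at 19993 to 22533 against 24873 to 26237 in the Tfam line.

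Several other laminin chains did not pass. Lama1 and Lama5, the alpha chains of the early epithelial basement membrane, passed in no line, and neither did Lamb1. Lama5 had 9382, 8167 and 7237 in control and 8779, 7945 and 7486 in deficient lungs of the Rptor line. Lama1 had 1285, 957 and 1122 against 1081, 821 and 843 (-0.29 ± 0.13, limma adjusted p = 0.12), and passed with the replicate block (0.0147). Lama4 rose in the Rptor line from between 8197 and 8548 to between 10288 and 11953 (0.40 ± 0.063, limma adjusted p = 0.00192). Lamb2, the beta 2 chain of vessels and muscle, rose from between 3611 and 3917 to between 4657 and 4758 (0.32 ± 0.051, limma adjusted p = 0.0021). The endothelial marker sum rose in these lungs too, from between 31346 and 32810 to between 40033 and 45290, and its part in the values of Lama4 and Lamb2 was not tested.

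Lamc3, the gamma 3 chain, was low and rose in the Rptor line from 120, 89.9 and 93.5 in control to 218, 233 and 236 in deficient lungs (1.18 ± 0.14, limma adjusted p = 0.000678). Its differences of 0.25 ± 0.14 with Tfam and 0.52 ± 0.16 with Cox10 deleted did not pass, although the Cox10-deficient values of 133, 132 and 180 lay above their control values of 103, 95.8 and 108. Lama2, the alpha 2 chain of muscle, had -0.30 ± 0.084 and Lamc1 -0.20 ± 0.055 in the Rptor line, with limma adjusted p-values of 0.0241 and 0.0244. Both passed narrowly: leaving out a sample ended the call in 4 of 6 cases for Lama2 (adjusted p up to 0.0828) and in 5 of 6 for Lamc1 (up to 0.0769).

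Of the nidogens, Nid2 rose in the Rptor line from 6514, 6203 and 6534 in control to 10839, 8969 and 9826 in deficient lungs (0.62 ± 0.072, limma adjusted p = 0.000539). Tfam line controls had 7664, 8665 and 7423 against 9503, 8305 and 8031 in deficient lungs, and Cox10 line controls 7923, 7011 and 7490 against 8125, 7882 and 9365. The groups overlapped in both. Nid1 passed in no line, with log2 differences of 0.10, -0.17 and 0.04. The difference between Nid1 and Nid2 was not tested.

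Among the integrins of epithelium, Itgb6 had the largest difference of all members. Its product pairs with alpha v and activates latent TGF-beta at epithelial surfaces. Rptor line controls had 260, 186 and 143 normalised reads and Rptor-deficient lungs 25.5, 40.6 and 38.5 (-2.45 ± 0.26, limma adjusted p = 0.000396). Tfam line controls had 189, 162 and 169 and Tfam-deficient lungs 92.3, 90.3 and 104 (-0.85 ± 0.12, limma adjusted p = 0.00278). With Cox10, 86.3, 81.7 and 83.9 stood against 41.9, 51.3 and 65.2 in deficient lungs (-0.68 ± 0.20, limma adjusted p = 0.238), and without deficient replicate 3 the difference was -0.84 ± 0.17, which did not pass either (limma adjusted p = 0.0592). Deficient values lay below control values in all 3 lines.

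Itgb8, the other alpha v partner that activates TGF-beta, moved the opposite way in the Rptor line. It rose from 135, 127 and 115 in control to 400, 263 and 262 in deficient lungs (1.26 ± 0.18, limma adjusted p = 0.00123). Its groups overlapped with Tfam and with Cox10 deleted, at log2 differences of 0.17 and 0.09. Itgb4, whose product pairs with alpha 6 in hemidesmosomes, rose in the Rptor line from 93.7, 119 and 107 to 176, 245 and 253 (1.06 ± 0.17, limma adjusted p = 0.00244). It overlapped between groups elsewhere, with 141, 225 and 180 against 279, 158 and 245 for Tfam and 142, 96.8 and 121 against 143, 119 and 181 for Cox10. Its partner Itga6 had a difference of -0.19 ± 0.055 in the Rptor line (limma adjusted p = 0.0266), a call that was lost in 4 of 6 cases when a sample was left out (up to 0.1). In the other lines the deficient values of Itga6 lay above the control values without passing, with 3829, 3237 and 3499 against 3965, 4279 and 3954 for Tfam (0.21 ± 0.069, limma adjusted p = 0.136) and 2911, 2847 and 2786 against 3161, 3013 and 4778 for Cox10 (0.33 ± 0.16, limma adjusted p = 0.421). Without deficient replicate 3 the Cox10 line difference of Itga6 was 0.12 ± 0.043 (limma adjusted p = 0.268). Contrasts of Itga6 between the Rptor line and the Tfam and Cox10 lines did not pass either (limma adjusted p = 0.122 and 0.0646). Itga2, an alpha subunit of a collagen and laminin receptor, passed in the Tfam line, with 726, 675 and 685 in control and 849, 846 and 912 in deficient lungs (0.32 ± 0.069, limma adjusted p = 0.0235), but not when any of 5 of the 6 samples (all but control replicate 3) was left out (up to 0.113). Itga3, the alpha subunit of the main laminin receptor of lung epithelium, passed in no line.

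**Figure D3:**
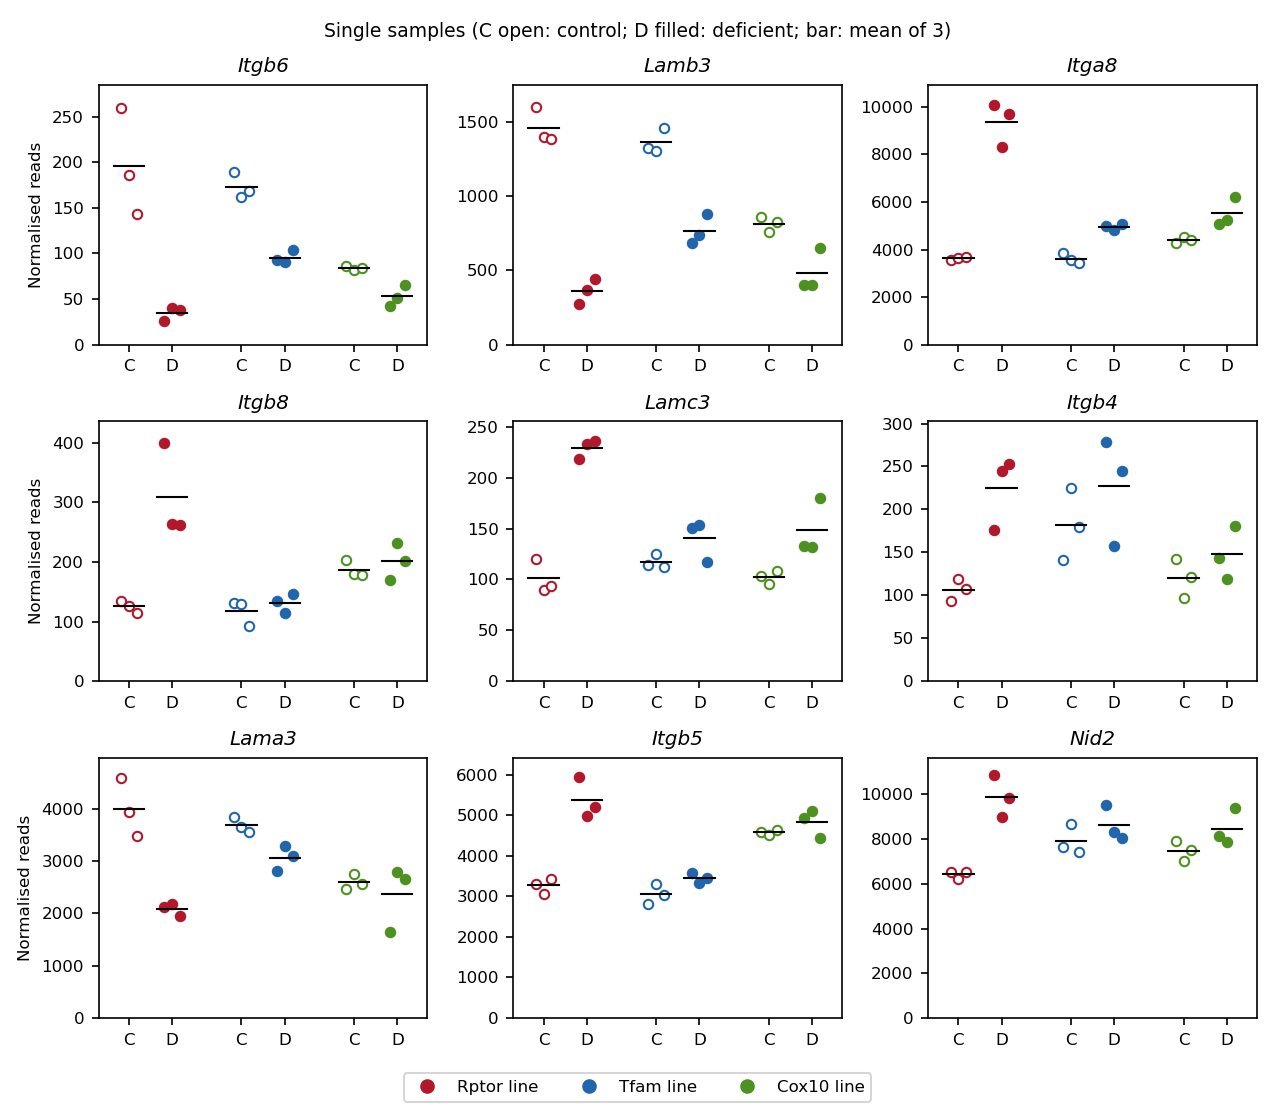
Normalised reads in each sample for the 9 members past the threshold with a log2 difference of at least 0.5 in size in at least 1 line, with open points for control (C), filled points for deficient lungs (D), a bar for the mean of 3 and a color for each line. Itgb6 and Lamb3 are lower and Itga8 is higher in all 3 deficient samples of every line, and the other 6 genes separate the groups in the Rptor line.

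Among the integrins of mesenchyme, Itga8 rose most. Its product pairs with beta 1 on mesenchymal cells and binds nephronectin of the basement membrane. Rptor line controls had 3558, 3657 and 3680 and Rptor-deficient lungs 10090, 8309 and 9712 (1.36 ± 0.074, limma adjusted p = 2.16e-05). Tfam line controls had 3873, 3541 and 3449 and Tfam-deficient lungs 4984, 4831 and 5086 (0.46 ± 0.060, limma adjusted p = 0.00135). With Cox10, 4264, 4532 and 4394 stood against 5086, 5251 and 6228 in deficient lungs (0.32 ± 0.078, limma adjusted p = 0.162), and without deficient replicate 3 it had 0.23 ± 0.042 and a limma adjusted p of 0.0388, against 0.0315 in the fit of all 18 samples. Deficient values were above control values in all 3 lines. The sum of the 6 lung mesenchyme markers was 70817 to 84472 in control and 131846 to 155432 in deficient lungs of the Rptor line, and its part in the Itga8 values was not tested. In the Tfam line that sum was 94982 to 125776 in control and 98912 to 124795 in deficient lungs. No mesenchyme marker passed there, beside 4.66% of all genes, and 4 of 6 had a positive difference. The part of mesenchyme in the Tfam line values of Itga8 was not tested either.

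Itgb5, the beta subunit of a vitronectin receptor, rose in the Rptor line from 3301, 3066 and 3440 to 5952, 4972 and 5214 (0.72 ± 0.077, limma adjusted p = 0.000402). With Tfam deleted its values of 3585, 3340 and 3457 lay just above the 2803, 3298 and 3040 of controls, without passing (adjusted p = 0.173 by limma). Itgav and Itga5, alpha subunits of vitronectin and fibronectin receptors, rose by little in the Rptor line (0.18 ± 0.054 and 0.20 ± 0.067, limma adjusted p = 0.0315 and 0.0485), and leaving out a sample ended the call in 4 and 5 of 6 cases (up to 0.122 and 0.138). Itga4, a subunit that binds fibronectin and VCAM1, fell in the Rptor line from between 1149 and 1440 to between 923 and 1084 (-0.38 ± 0.10, limma adjusted p = 0.0166), a call lost in 3 of 6 such cases (up to 0.0621). Itga9, which binds tenascin C, fell in the Tfam line from 3797, 4285 and 3728 to 3214, 3429 and 3108 (-0.27 ± 0.068, limma adjusted p = 0.0459), and the call was lost in 5 of 6 such cases (up to 0.175). Itgb1 passed in no line, with 24604, 24152 and 24193 in control and 25565, 25140 and 25971 in deficient lungs of the Rptor line.

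None of the 6 integrin subunits of leukocytes (Itgal, Itgam, Itgax, Itgae, Itgb2 and Itgb7) passed in any line. Of all genes, 34.8% passed with Rptor, 4.66% with Tfam and 0.475% with Cox10 deleted. In the Rptor line their log2 differences ran from -0.52 to 0.59, 4 of 6 of them positive. Their group means there were low, from 21.9 to 100 normalised reads. Groups did not overlap for 3 of 6 in that line, beside 50.3% of all genes. The 6 leukocyte markers summed to 2156 to 2274 in control and 3707 to 4287 in deficient lungs of the Rptor line, and their part in the integrin values was not tested. The platelet pair Itga2b and Itgb3 did not pass either. In total 18 of 38 members passed in no line, a count for which no share of all genes was taken. In the Rptor line alone 47.4% of members passed, beside 34.8% of all genes. The log2 differences of these 18 lay between -0.52 and 0.59 with Rptor, -0.38 and 0.46 with Tfam and -0.48 and 0.65 with Cox10 deleted.

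Once deficient replicate 3 was left out, 4 of 38 members passed in the Cox10 line, beside 1.72% of all genes: Lamb3 and Itga8 as above, Lamb2 with 0.22 ± 0.040 (limma adjusted p = 0.0427) and Itga9 with -0.26 ± 0.049 (limma adjusted p = 0.0492). With all 6 samples Lamb2 had 3221, 3107 and 3198 in control and 3743, 3633 and 4766 in deficient lungs, and Itga9 4522, 4298 and 4350 against 3836, 3508 and 3151. For both, the groups did not overlap with all samples in place.

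The size of the differences was compared between lines in a limma model of all 18 samples, on the 14550 genes tested in all 3 lines. Between the Rptor and Tfam lines the differences of 9 members were unequal (23.7%, beside 11.2% of all genes), and between the Rptor and Cox10 lines also those of 9 (23.7%, beside 7.48%). Between the Tfam and Cox10 lines no member passed in limma, beside 0.055% of all genes, with 2 of 38 members at an unadjusted p below 0.05, beside 4.56%. The 7 members Itga8, Itgb5, Itgb6, Itgb8, Lama3, Lamb3 and Nid2 were unequal in both contrasts with the Rptor line, beside 5.56% of all genes. For Lamb3, the log2 difference of the Rptor line minus that of the Tfam line was -1.20 ± 0.24 (limma adjusted p = 0.00436), and minus that of the Cox10 line it was -1.25 ± 0.24 (limma adjusted p = 0.00357). The corresponding values for Itga8 were 0.90 ± 0.11 and 1.04 ± 0.11 (limma adjusted p = 6.26e-05 and 2.14e-05). For each of these 7 genes, whether it rose or fell, the difference was larger in size in the Rptor line. That line is used in both contrasts, so their results are not independent.

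Since epithelial markers were lower in deficient lungs, 11 members that lung epithelium expresses were set against epithelial genes of the same sample, as the log2 value of the member minus the average over Cdh1, Epcam and Nkx2-1. The deficient minus control difference of that average was -1.17 with Rptor, -0.27 with Tfam and -0.40 with Cox10 deleted. A gene with no change would therefore rise by the same sizes on the relative scale, and a gene that fell like the epithelial genes would stay at 0. The 3 reference genes had unequal differences: on the relative scale Cdh1 itself lay at -0.72 with Rptor, -0.28 with Tfam and -0.04 with Cox10 deleted, Epcam at 0.40, 0.23 and 0.10, and Nkx2-1 at 0.32, 0.05 and -0.06. Lamb3 and Itgb6 were below 0, and below Cdh1, in each line. Relative to the epithelial genes, Lamb3 differed by -0.86 with Rptor, -0.56 with Tfam and -0.38 with Cox10 deleted, at a mean of -0.60 (exact permutation test over 8000 arrangements within lines, two-sided, p = 0.00025, the smallest it can give). Itgb6 differed by -1.27, -0.58 and -0.29, with a mean of -0.71 (exact permutation test, p = 0.00025). Within a line, 3 samples against 3 cannot go below an exact p of 0.1, which both genes had in every line.

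Lama3, at 0.24, 0.00 and 0.23 on the relative scale, was the 1 member that did not pass (mean 0.16, exact permutation test, p = 0.111). It passed in 2 of 18 cases with a sample left out, without Rptor-deficient replicate 3 and without Cox10-deficient replicate 1 (exact permutation test, adjusted p down to 0.0362). The other 8 members were higher relative to the epithelial genes, with exact permutation p-values from 0.00025 to 0.00075. A gene with no change would also be higher on this scale, so passing in that direction does not show that a member itself changed. The means of the 7 that are shown in the plot ran from 0.53 for Itga3 to 1.16 for Itgb4. The relative differences of Lama5 (1.14) and Itga3 (1.10) in the Rptor line lay near the level of a gene with no change. Itgb4 (2.23) and Itgb8 (2.43) lay well above it. In all 11 such tests were made, and with Benjamini-Hochberg adjustment over them the highest value of the 10 that passed was 0.000825. With Krt8, Krt18 and Cldn6 in place of the 3 epithelial genes, 10 members passed again, 8 higher and 2 lower.

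**Figure D4:**
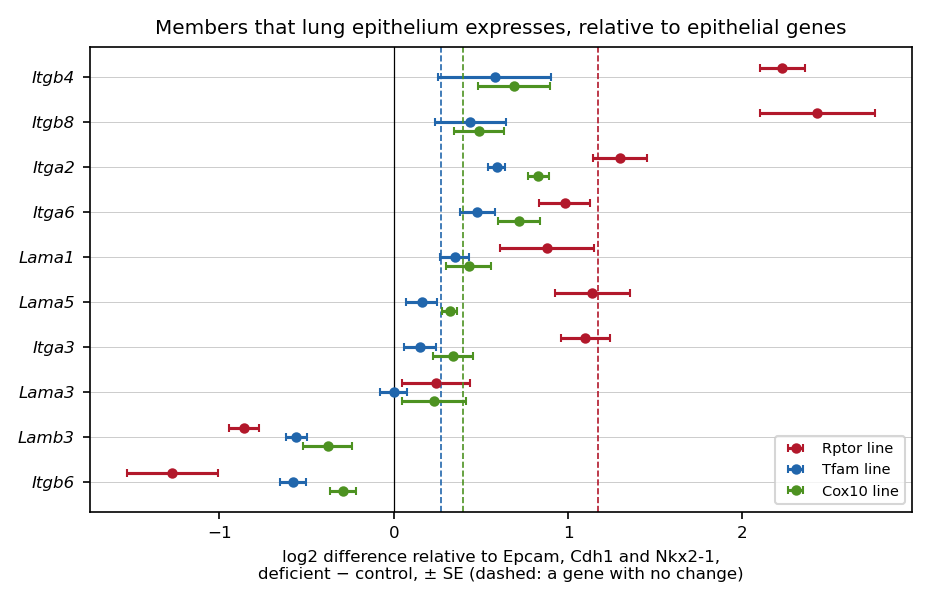
Difference between deficient and control lungs of 10 members relative to the average over Cdh1, Epcam and Nkx2-1 in the same sample, in log2 units, with bars for the SE of 3 against 3 samples and a color for each line. Dashed lines, in the same colors, stand where a gene with no change of its own would lie. Lamb3 and Itgb6 are the only 2 of the 10 genes below 0 in all 3 lines.

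The partners of these genes in the basement membrane were taken from a list of 28, of which 27 were tested in each line. With Rptor deleted 18 passed, 10 higher and 8 lower (66.7%, beside the 34.8% of all genes). With Tfam deleted 8 passed, 1 higher and 7 lower (29.6%, beside 4.66%), and with Cox10 deleted none, beside 0.475%, with 9 at an unadjusted limma p below 0.05, beside 13.0%. Smoc2, a calcium-binding matrix protein, fell most in the Rptor line, from a mean of 1947 ± 211 to 330 ± 81.2 normalised reads (SD, n = 3, log2 difference -2.58), and in the Tfam line from 1685 ± 142 to 870 ± 139 (-0.96). Ntn1 and Ntn4, netrins that are related to laminins in sequence, also fell in both, with log2 differences of -1.38 and -1.15 for Ntn1 and -1.27 and -0.63 for Ntn4. In the Cox10 line these 3 genes had log2 differences of -1.82 for Smoc2, -1.48 for Ntn1 and -1.07 for Ntn4, which did not pass (limma adjusted p = 0.079, 0.0798 and 0.0845). Col4a4, a chain of collagen IV, fell in the Tfam line from 733 ± 125 to 420 ± 32.2 (-0.79). Npnt, which encodes nephronectin, the ligand of the integrin with the Itga8 subunit, was picked out after its values were seen. It rose in the Rptor line from 5064 ± 33.4 to 12053 ± 2010 (1.24 ± 0.10) and in the Tfam line from 5435 ± 348 to 6758 ± 570 (0.31 ± 0.073, limma adjusted p = 0.0352). In the Cox10 line Npnt went from 3711 ± 37.1 to 4789 ± 1810 and did not pass (0.30 ± 0.21, limma adjusted p = 0.556). Ligand and receptor subunit thus were both higher in the deficient lungs of the Rptor and Tfam lines.

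Of 25 genes for the proteins that link integrins to the cytoskeleton, 10 passed with Rptor deleted, 9 higher and 1 lower (40.0%, beside 34.8% of all genes). None passed in limma with Tfam deleted, beside 4.66% of all genes, with 4 at an unadjusted p below 0.05, beside 17.4%, and 1 passed with Cox10 deleted, beside 0.475%. The gene that fell in the Rptor line was Fermt1, which encodes kindlin-1, an activator of integrins in epithelium, from 170 ± 20.7 to 46 ± 13.2 (-1.91 ± 0.24). It was also the 1 that passed in the Cox10 line, from 167 ± 29.7 to 81 ± 1.8 (-1.01 ± 0.16, limma adjusted p = 0.0492). With Tfam deleted Fermt1 had 128 ± 26.3 in control and 80 ± 9.85 in deficient lungs and narrowly did not pass (-0.66 ± 0.17, limma adjusted p = 0.0542). Ptk2b, a focal adhesion kinase, and Col17a1, a transmembrane collagen of hemidesmosomes, had the largest rises in the Rptor line, both with 0.81. Col17a1 rose from 122 ± 25.0 to 212 ± 17.4 in the same lungs in which Itgb4, another hemidesmosome gene, rose. Ptk2b, Parvg (0.67) and Fermt3 (0.54), 3 of the 9 genes that rose, are also known from blood cells, and the 6 leukocyte markers rose by 0.62 to 0.94 in the same lungs. Their part in these values was not tested.

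Of the 38 members, 13 share exon bases with another annotated gene, 5 of them among the 9 shown by sample: Itga8 shares 372 bases with the antisense RNA E030013I19Rik, Itgb4 537, Lama3 197, Lamc3 382 and Nid2 437 with genes on the opposite strand. The strand setting of the read counting is not given in the sources used here, so reads from these stretches cannot be assigned with certainty.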

How the data were processed

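RNA-seq of whole embryonic lungs gave 18 samples, grouped and numbered by their titles. The authors deposited 1 table per line with a normalised signal per gene and sample, that is, gene read counts scaled by 1 size factor per sample. For each sample, all values (100%) were whole-number multiples of 1 unit, the worth of a read after scaling, which lay between 0.9775 and 1.0198 (tolerance 0.01). The submitters' processing notes name Trim Galore, HISAT2, featureCounts, DESeq2 and build mm10, with no versions. Deposited columns of the authors' fold changes and p-values were not used.

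Values were fitted as log2(value + 1) in limma 3.58.1 (R 4.3.3; lmFit, eBayes with trend), which understates fold changes of low genes. A gene was tested with a value of at least 10 in at least 3 of 6 samples. Differences between lines were tested in a fit of 6 groups. The test relative to epithelial genes was an exact permutation within lines. Tests were two-sided. The fits were tested on simulated data. Levels per kilobase used the merged exons of GENCODE M21 (GRCm38).

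One member is included in the counts and is not reported here by itself. Members and gene lists were chosen with earlier results of these data known. By rule, values by sample were given for the 9 members past the threshold with a log2 difference of at least 0.5 in size in at least 1 line, and other laminins and nidogens could be named with values. Further integrins given with values, and Npnt, were chosen after their values were seen. Up to 3 genes per partner list and line were named by size, and for some of them values in other lines were added. Parvg and Fermt3 were named beyond that rule. Deviations of same-numbered samples from their group means correlated at 0.221, 0.33 and 0.259 in the Rptor line, so the numbers may pair samples there, and the fit with the number as a block is given where it changed a call.

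The alternatives were scaling to library totals, trimmed mean of M-values scaling, pseudocounts of 0.1 and 10, no filter, a mean of at least 50, the replicate block, a correction for gene length and GC content, edgeR 4.0.16 on recovered reads, all 18 samples in one fit, other epithelial genes, and leaving out each sample.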

Additional observations from a re-analysis of the deposited data

Results flagged for a closer look

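The difference between deficient and control lungs was unequal between lines for 11 of 38 members, beside 13.1% of all genes, by the limma contrast of the 6-group fit (adjusted p below 0.05). No explanation for any of them was tested.

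Between the Rptor and Tfam lines, the log2 difference was higher in the Rptor line by 0.90 for Itga8, 0.26 for Itgav, 0.53 for Itgb5, 1.10 for Itgb8, 0.93 for Lamc3 and 0.50 for Nid2. It was lower in the Rptor line for Itgb6 (-1.59), Lama3 (-0.66) and Lamb3 (-1.20). Between the Rptor and Cox10 lines, it was higher in the Rptor line by 1.04 for Itga8, 0.64 for Itgb5, 1.17 for Itgb8 and 0.44 for Nid2. It was lower in the Rptor line for Itga4 (-0.51), Itgb6 (-1.76), Lama2 (-0.58), Lama3 (-0.77) and Lamb3 (-1.25).

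Itga4 and Lama2 had opposite signs in the Rptor and Cox10 lines, -0.38 against 0.12 and -0.30 against 0.29. The Itgav contrast passed narrowly (adjusted p = 0.0495) and did not pass with the replicate block (0.0549). Leaving out 1 of the 18 samples ended the call for Itgav in 15 cases (adjusted p up to 0.119) and for Lama3 in 13 cases against the Tfam line (up to 0.103) and 6 against the Cox10 line (up to 0.0765). It ended the call of Nid2 against the Cox10 line in 8 cases (up to 0.0903) and that of Itga4 in 5 (up to 0.0849).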

How the results depend on the processing

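Itga8, Lamb3 and Itgb6 kept their direction and their call in the Rptor and Tfam lines under all 16 alternatives, and so did Itgb8, Lamc3, Itgb4, Lama3, Itgb5 and Nid2 in the Rptor line. The Rptor count was 17 to 19 under the other settings, beside 25.7% to 40.8% of all genes, and 12 to 19 with a sample left out, beside 24.0% to 36.0%. The Tfam count was 3 with all 18 samples in one fit, beside 2.74% of all genes. With a sample left out it was 3 to 6, beside 2.37% to 7.46%. It was 3 without any of 5 samples (all but control replicate 3), when Itga8, Itgb6 and Lamb3 remained. The Cox10 count was 5 with all 18 samples in one fit, beside 2.25% of all genes. With a sample left out it was 0 to 4, beside 0.0202% to 1.72%, with the 4 reached without deficient replicate 3 (1.72%). Among the 9 members past the threshold with a difference of at least 0.5 in size, and the calls of other members, the sign turned for Itgb8 in the Cox10 line without deficient replicate 2 (-0.02, range -0.02 to 0.21 with a sample left out) and for Lama3 in the Cox10 line without deficient replicate 1 (0.08, range -0.31 to 0.08). Over all 38 members, 10 with differences of at most 0.14 in size turned sign in the Cox10 line without deficient replicate 3, Nid1 (from 0.04 to -0.07) among them. The cause was not tested.

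Itga5 in the Rptor line lost its call in 3 of 10 other settings (adjusted p up to 0.131), and Itga6 in the Rptor line with all 18 samples in one fit (0.200). Lama3 in the Tfam line lost it in 5 of 10 (up to 0.400), Itga9 in 2 (up to 0.0654) and Itga2 in 1 (0.101). With the replicate block 19 members passed with Rptor (38.6% of all genes), 5 with Tfam (5.33%) and none with Cox10 deleted (0.321%), and apart from Lama1 for Rptor and Lama3 for Tfam no call of a member within a line changed. Between the Rptor and Tfam lines, 10 members were unequal with the block (15.9% of all genes) against 9 without it (11.2%): Lama1 (adjusted p = 0.0293, against 0.121) and Lama4 (0.039, against 0.0588) were gained and Itgav was lost. Deviations of same-numbered samples correlated at -0.312, -0.207 and 0.151 in the Tfam line. In the Cox10 line they correlated at 0.447, 0.202 and 0.0488, all positive as in the Rptor line, so the numbers may pair samples there too. The 3 samples a group and the low reads for Itgb4, Itgb6, Itgb8 and Lamc3 limit the precision of single values.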
